A study of Mus musculus with 186 samples.

Results

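The hormone receptor genes of the mammary gland and a set of genes known to act downstream of them were followed in single cells of the adult mouse gland. The set was a list of 8 genes given by name: Esr1, Pgr, Prlr, Cited1, Greb1, Stc2, Tnfsf11 and Tnfrsf11a. All 8 were found by their Entrez identifiers among the 27179 genes counted in each cell, and all 8 were among the 14773 genes that reached 1 CPM (a count scaled to the reads of its cell) in at least 3 cells. The cells came from the mammary glands of untreated adult FVB/NJ mice, 8 according to the design text, and were captured on the Fluidigm C1, a chip that isolates each cell in a chamber of its own and converts its polyadenylated RNA into full-length cDNA. After removal of blood, endothelial and erythroid cells (the lineage stain CD45, CD31 and Ter119), 96 cells had been sorted as basal by high CD29 and 90 as luminal by low CD29, both CD24+. Plate A of the amplified cDNA held basal cells, plate C luminal cells and plate B both. No stage of the estrus cycle and no mouse of origin was given for a cell.

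Estrogen and progesterone reach the mammary epithelium through nuclear receptors, estrogen receptor alpha (Esr1) and the progesterone receptor (Pgr), that are found in a fraction of luminal cells, while prolactin acts through a cell-surface cytokine receptor (Prlr) that signals by the kinase Jak2 and the transcription factors Stat5a and Stat5b. Receptor-positive luminal cells are known to pass the hormonal signal on to neighbouring cells by secreted factors. Among these is RANK ligand (Tnfsf11), a progesterone target that binds RANK (Tnfrsf11a), a receptor of the tumour necrosis factor family, on other epithelial cells. Cited1 is a transcriptional coregulator that binds estrogen receptor alpha, Greb1 is an estrogen-induced gene of breast cancer cells, and Stc2 encodes stanniocalcin 2, a secreted glycoprotein.

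The promoters of the members were read to see which letters of the elements bound by these receptors and their partners lie at the annotated starts. RefSeq (GRCm38.p6) listed 14 windows of 300 bases for the 8 genes, from upstream of the start into the transcript, and both strands were searched. None of the 14 windows held the palindrome of the estrogen response element (GGTCA and TGACC with 3 bases between), which occurred in 0.07% of 32851 windows of this length, or that of the progesterone response element (GNACA and TGTNC with 3 bases between), which occurred in 0.475%. The hexamer AGGTCA of the estrogen response element was found at a start of Greb1 and of Cited1 and in 16.3% of all windows. The STAT element TTCNNNGAA was found at a start of Esr1 and of Prlr and in 8.3% of all windows, and the forkhead element TGTTTAC at the same start of Prlr and in 3.65%. No motif overlapped another in these windows. The 4 windows that held a motif are shown, each 5′ to 3′ in the direction of its gene, with the motif letters in capitals. A read count per gene does not tell which start was used.
Prlr, chr15:10223656-10223955, + strand, forkhead element 215 bases and STAT element 110 bases upstream of the start: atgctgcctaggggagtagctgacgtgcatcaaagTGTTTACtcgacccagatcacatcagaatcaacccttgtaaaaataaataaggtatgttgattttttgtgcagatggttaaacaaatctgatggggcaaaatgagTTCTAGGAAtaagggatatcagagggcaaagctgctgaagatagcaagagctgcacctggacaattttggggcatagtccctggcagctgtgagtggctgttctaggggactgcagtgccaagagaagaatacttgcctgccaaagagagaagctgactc
Esr1, chr10:4709908-4710207, + strand, STAT element 188 bases upstream of the start: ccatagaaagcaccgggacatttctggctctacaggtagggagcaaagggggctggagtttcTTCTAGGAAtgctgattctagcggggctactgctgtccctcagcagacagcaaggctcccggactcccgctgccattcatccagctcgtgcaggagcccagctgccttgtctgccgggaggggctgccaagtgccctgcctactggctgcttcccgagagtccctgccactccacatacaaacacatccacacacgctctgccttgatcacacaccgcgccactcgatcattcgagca
Cited1, chrX:102250727-102251026, - strand, hexamer (read as TGACCT) 217 bases upstream of the start: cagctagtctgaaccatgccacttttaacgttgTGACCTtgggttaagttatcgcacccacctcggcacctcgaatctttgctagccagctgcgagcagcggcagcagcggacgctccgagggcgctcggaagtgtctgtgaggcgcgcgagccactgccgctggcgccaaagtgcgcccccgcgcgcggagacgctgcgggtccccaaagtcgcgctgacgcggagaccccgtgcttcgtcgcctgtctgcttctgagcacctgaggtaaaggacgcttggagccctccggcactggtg
Greb1, chr12:16800837-16801136, - strand, hexamer (read as TGACCT) 88 bases upstream of the start: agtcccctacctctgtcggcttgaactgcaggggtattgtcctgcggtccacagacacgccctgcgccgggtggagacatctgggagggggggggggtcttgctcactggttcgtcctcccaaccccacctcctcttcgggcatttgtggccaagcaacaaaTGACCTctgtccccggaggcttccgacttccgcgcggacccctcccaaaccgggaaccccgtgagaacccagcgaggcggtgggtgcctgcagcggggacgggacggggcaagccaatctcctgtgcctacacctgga

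Total counts ranged from 3105 to 3784407 per cell over the 186 cells. The study's thresholds left 72 basal cells, 50 of plate A and 22 of plate B, and 76 luminal cells, 24 of plate B and 52 of plate C. These held 69933 to 3226961 reads each. At a common depth of 50000 reads, the median number of genes per cell was 2897 (plate A) and 1575 (plate B) for basal cells, against 3198 (plate B) and 3428 (plate C) for luminal cells. The sorted populations carried their defining keratins: Krt14 reached 1944 CPM in the basal and 47.5 CPM in the luminal population, and Krt18 reached 122.3 and 3055 CPM. Markers of other cell types were present in some wells: 4 or more of 10 endothelial markers were found in 5 basal and 4 luminal cells, of 10 fibroblast markers in 1 and 7, of 10 pericyte markers in 0 and 3, and of 10 immune markers in none.

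Some libraries stood apart for the members. The library labelled basal cell 90 (plate B) held none of 10 basal markers at 50000 reads and 7 of 10 luminal markers, with 0.693 CPM of Krt14 and 2974 CPM of Krt18. Basal cell 13 (plate A) held 8 of 10 basal and 8 of 10 luminal markers. Between them, these cells held most of the basal reads of Prlr and Cited1, so the levels of both genes are also given without them. Because no cell could be tied to a mouse, a population stands for 1 sample here, and differences between basal and luminal cells carry neither a test nor a standard error. Intervals are 95% Poisson limits for summed counts and 95% Clopper-Pearson limits for shares of cells, and they cover counting error only.

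By summed reads, 6 of the 8 members were at least 2-fold higher in luminal cells, and the other 2 at least 2-fold higher in the basal population. Over all 14773 genes, 28.4% were at least 2-fold higher in luminal and 18.3% in basal cells. The log2 ratio of luminal over basal cells (summed CPM, with 1 CPM added to each) had a median of 5.26 over the members and 0.18 over all genes. On plate B, which held both populations, 41.4% of all genes were at least 2-fold higher in luminal and 17.2% in basal cells. Of the members, 6 were at least 2-fold higher in luminal cells there, Tnfrsf11a in basal cells, and Greb1 had no read. The median there was 5.46 over the members, with Greb1 counted at 0, and 0.48 over all genes. The genes higher in luminal cells were both nuclear receptors, the prolactin receptor, Cited1, Stc2 and the ligand Tnfsf11. Those higher in basal cells were the receptor Tnfrsf11a and Greb1, each under 2-fold with 1 basal cell left out (-0.99 and -0.05).

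**Figure D1:**
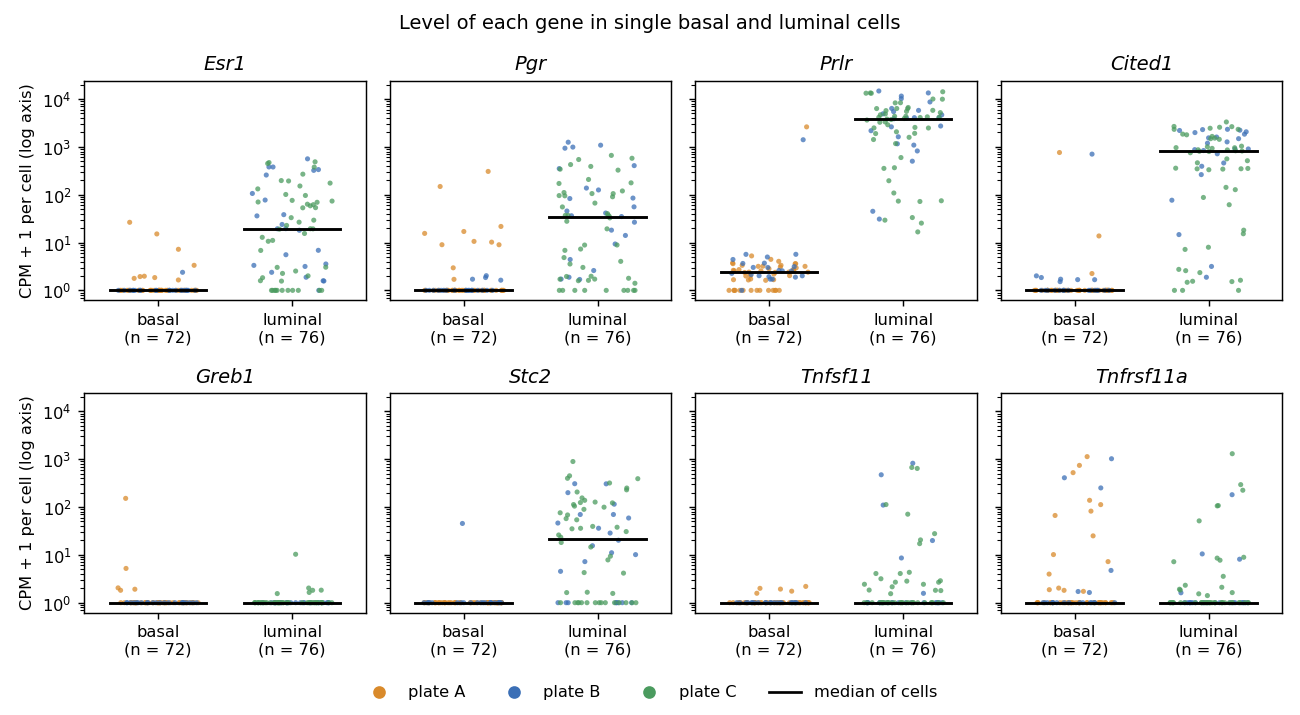
Level of each of the 8 genes in every basal and luminal cell, as CPM + 1 on a log axis; each point is a cell colored by plate and the black line is the median of the cells. Prlr lies between 15.7 and 14729 CPM in the 76 luminal cells and at a median of 1.41 CPM in the 72 basal cells, where cells 13 and 90 are the 2 points above 1000 CPM.

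Prlr (chr15:10177238-10349190) was the member with most reads in luminal cells. Luminal cells ranged from 15.7 to 14729 CPM with a median of 3894 CPM, and 60 of 76 cells held at least 1000 CPM. In basal cells the range was 0 to 2619 CPM and the median 1.41 CPM. The ranges overlapped through basal cells 13 and 90, at 2619 and 1409 CPM, while the next highest basal cell held 4.67 CPM, below every luminal cell. The summed level was 60.6 CPM in the basal and 4551 CPM in the luminal population, a log2 ratio of 6.21 (6.16 to 6.25). Without basal cells 13 and 90 the basal level was 1.48 CPM and the ratio 10.84. With every cell thinned at random to 50000 reads, Prlr was found in 75 of 76 luminal cells (98.7%) and 6 of 72 basal cells (8.33%, 3.12 to 17.3), and in 4 of the basal cells other than 13 and 90. At least 1 read of Prlr was found in 57 of 72 basal cells at full depth, and in 38 of them it was 1 or 2 reads. Cells with a read were found on both basal plates, 36 of the 50 cells from plate A and 21 of the 22 from plate B. Prlr overlaps the long non-coding RNA gene Gm41268, which was not among the genes counted, and whether counting used strand is not given in the sources used here.

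Esr1 (chr10:4611989-5005633) was spread widely among luminal cells. Luminal cells ranged from 0 to 561.2 CPM with a median of 18.4 CPM, and basal cells from 0 to 25.5 CPM with a median of 0. The ranges overlapped, since the lower luminal cells lay at 0 to 1.2 CPM up to the first quartile. The populations' summed levels were 0.701 CPM (basal) and 100.2 CPM (luminal), a log2 ratio of 5.89 (5.71 to 6.07), and the ratio was 6.61 on plate B. At that depth, where 1 read corresponds to 20 CPM, Esr1 was found in 42 of 76 luminal cells (55.3%, 43.4 to 66.7) and 4 of 72 basal cells (5.56%, 1.53 to 13.6). Its luminal share was alike on both plates, with 13 of 24 cells from plate B and 29 of 52 from plate C.

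Pgr (chr9:8898900-8968611) had a similar span. Its levels in luminal cells lay between 0 and 1251 CPM with a median of 34.0 CPM, and those in basal cells between 0 and 305.9 CPM with a median of 0. The ranges overlapped up to the highest basal cell at 305.9 CPM, and 2 basal cells exceeded 100 CPM. Summed over cells, Pgr stood at 8.15 CPM in the basal and 140.4 CPM in the luminal population, a log2 ratio of 3.95 (3.83 to 4.07). The 2 plates that held basal cells differed: the basal level was 12.2 CPM on plate A and 0.143 CPM on plate B, and the ratio was 7.70 on plate B and 2.85 between plates A and C. Basal cells 51 and 42 held 376 and 202 of the 686 basal reads, and the ratio was 4.90 without cell 51 and 5.93 without both. Cell 51 held 9 of 10 basal markers and 2 of 10 luminal markers at 50000 reads. Pgr was found in 45 of 76 luminal cells (59.2%, 47.3 to 70.4) and 5 of 72 basal cells (6.94%, 2.29 to 15.5) at that depth.

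Tnfsf11 (chr14:78277446-78308043) was found at high level in few luminal cells. The luminal levels spanned 0 to 822.3 CPM with a median of 0, and basal cells from 0 to 1.19 CPM. The ranges overlapped from 0 to 1.19 CPM, and 5 basal cells held a single read each. Summed over cells, it stood at 0.0594 CPM in the basal and 38.8 CPM in the luminal population, a log2 ratio of 5.23 (5.08 to 5.33). At 50000 reads the ligand was found in 12 of 76 luminal cells (15.8%, 8.43 to 26.0) and in 0 of the 72 basal ones. At that depth a count of 0 allows 3 cells (4.17%), and the Clopper-Pearson upper limit was 4.99%. The 5 luminal cells with most reads held 91.9% of the luminal reads, led by cell 19 of plate B at 822.3 CPM and cell 26 of plate C at 670.8 CPM. Without these 2 cells the ratio was 4.09.

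Tnfrsf11a (chr1:105780673-105849444), the receptor of that ligand, was found in few cells of both populations. Luminal cells ranged from 0 to 1302 CPM and basal cells from 0 to 1131 CPM, both with a median of 0. The ranges overlapped almost entirely. It was found in 10 of 76 luminal cells (13.2%, 6.49 to 22.9) and 10 of 72 basal cells (13.9%, 6.87 to 24.1) at 50000 reads. Over 10 other draws of those reads the luminal share was 9.21% to 14.5% and the basal share 15.3% to 19.4%, and without thinning the shares were 28.9% and 29.2%. The summed level was 66.3 CPM in the basal and 25.0 CPM in the luminal population, a log2 ratio of -1.37 (-1.46 to -1.28). The ratio was -3.06 on plate B and -0.89 between plates A and C. It rested on few cells: without basal cell 12 it was -0.99, which is under 2-fold, and without basal cells 12 and 64 it was -0.48. Without luminal cell 50, which held 1490 of the 2857 luminal reads, it was -2.36. Cell 50 held no read of Esr1, Stc2 or Tnfsf11, 7.86 CPM of Pgr and 24.5 CPM of Prlr. Luminal cell 53, at 106.3 CPM of Tnfrsf11a, held no read of Esr1 or Pgr. Luminal cells 71, 63, 3 and 69 held 104.7 to 293.0 CPM of Tnfrsf11a. In these cells Esr1 was at 17.1 to 376.9 CPM, Pgr at 82.1 to 176.1 CPM and Prlr at 1896 to 6658 CPM. Cell 63, which held the 376.9 CPM of Esr1, had 419.3 CPM of the basal keratin Krt14, and cell 3 had 319.0 CPM. The luminal population had 47.5 CPM of Krt14, and cells 71 and 69 held no read of it.

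Cited1 (chrX:102247378-102252181) was the member with the highest level per length in luminal cells. These ranged from 0 to 3316 CPM with a median of 813.4 CPM, and basal cells from 0 to 761.3 CPM with a median of 0. The ranges overlapped, as 3 luminal cells had no read and basal cells 13 and 90 held 761.3 and 704.8 CPM. The summed level was 22.6 CPM (basal) against 920.1 CPM (luminal), a log2 ratio of 5.29 (5.22 to 5.36). Without basal cells 13 and 90 the basal level was 0.319 CPM and the ratio 9.45. Cited1 was found in 63 of 76 luminal cells (82.9%, 72.5 to 90.6) and in 2 of 72 basal cells (2.78%, 0.338 to 9.68) at 50000 reads, and the 2 were cells 13 and 90.

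Stc2 (chr11:31359441-31370061) had reads in a single basal cell. Its luminal levels lay between 0 and 893.6 CPM with a median of 20.8 CPM. In basal cells all 64 reads (44.4 CPM) were in cell 90. The summed level was 0.761 CPM (basal) against 78.4 CPM (luminal), a log2 ratio of 5.49 (5.30 to 5.67). Without cell 90 no basal read was left, and luminal cells were then at least 2160-fold higher than the limit of 0.0363 CPM that 3 reads over the 71 other basal cells would give. Stc2 was found in 43 of 76 luminal cells (56.6%, 44.7 to 67.9) at 50000 reads. In 23 of 76 luminal cells no read was found at full depth.

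Greb1 (chr12:16670615-16801394) was barely detected. Luminal cells held 8 reads in all, spread over 6 cells of plate C with 1 to 3 reads each. Basal cells held 230 reads, of which 221 were in cell 56 of plate A at 150.7 CPM. Single luminal cells lay between 0 and 9.30 CPM and basal cells between 0 and 150.7 CPM, both with a median of 0. Summed levels of 2.73 CPM (2.39 to 3.11) in the basal and 0.0701 CPM (0.0303 to 0.138) in the luminal population gave a log2 ratio of -1.80. It became -0.05 without cell 56, so the direction rested on that cell. Cell 56 held 10 of 10 fibroblast markers and 7 of 10 basal markers at 50000 reads, with 38.9 CPM of Krt14, and the part of that cell type in the reads was not tested. No read was found in either population on plate B. At 50000 reads Greb1 was found in 2 of the 72 basal and 0 of the 76 luminal cells. At that depth a count of 0 allows 3 cells (3.95%), and the Clopper-Pearson upper limit was 4.74%.

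**Figure D2:**
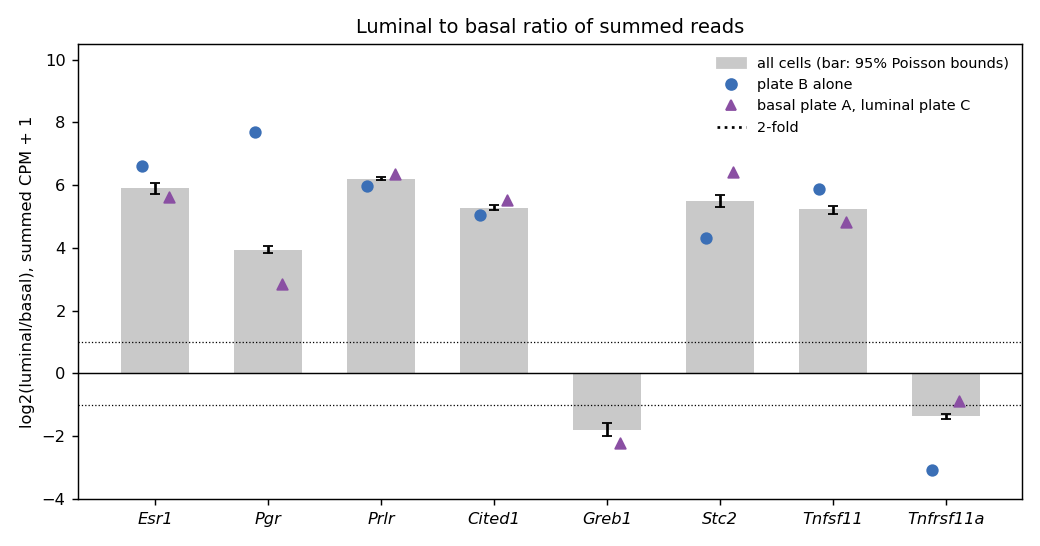
Log2 ratio of luminal over basal summed CPM, with 1 CPM added, for each of the 8 genes; gray bars are all 148 cells with 95% Poisson bounds, blue points plate B alone and purple triangles basal plate A against luminal plate C, and dotted lines mark 2-fold. Pgr runs from 2.85 to 7.70 between the plate settings, and Greb1 has no plate B point because it had no read there.

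Levels were compared between genes as RPKM, which divides the CPM by the exonic length in kilobases. In luminal cells the summed levels were 943.7 RPKM for Cited1, 339.2 for Prlr, 43.7 for Stc2, 23.2 for Esr1, 20.4 for Pgr, 17.3 for Tnfsf11, 4.99 for Tnfrsf11a and 0.00849 for Greb1. By the middle 50% of single cells, Cited1 (86.0 to 1567 RPKM) and Prlr (101.4 to 432.0 RPKM) overlapped each other. Prlr lay above Stc2 (0 to 55.6 RPKM), and Stc2, Esr1 (0.278 to 18.8 RPKM) and Pgr (0.140 to 16.3 RPKM) overlapped. The last 3 genes also overlapped, with first quartiles of 0. In basal cells the highest summed levels were 23.2 RPKM for Cited1, with 1017 and 856 of its 1899 reads in cells 90 and 13, and 13.2 RPKM for Tnfrsf11a.

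The members were next examined within single luminal cells. At 50000 reads, 62 of 76 luminal cells (81.6%, 71.0 to 89.5) held 3 or more of the 8 members, and the median cell held 4. In basal cells 2 of 72 (2.78%, 0.338 to 9.68) did so, cells 13 and 90, and the median was 0. By plate, the luminal cells that did so were 21 of 24 (plate B) and 41 of 52 (plate C). Each of 10 other draws of the reads gave a luminal share below 81.6%. Without thinning, 74 of 76 luminal and 14 of 72 basal cells reached 3 members, and with at least 5 reads asked of each member 67 and 2 cells did. A single luminal cell held 7 members, 7 cells held 6 and 19 held 5. At the other end 1 luminal cell held none and 7 held 1. These 8 cells held Prlr at 28.4 to 2492 CPM at full depth, 5 to 9 of 10 luminal markers, and 0 to 2 of 10 mature luminal markers other than the members. They held 4 to 7 of 10 luminal progenitor markers, and cell 5 held 1142 CPM of Krt14. Cells 9, 43, 45 and 81 held 996 to 1258 genes at 50000 reads, where the luminal medians were 3198 and 3428. Cells 5, 31, 60 and 61 held 2250 to 3685 genes. The part of gene number in the low counts of members was not tested.

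**Figure D3:**
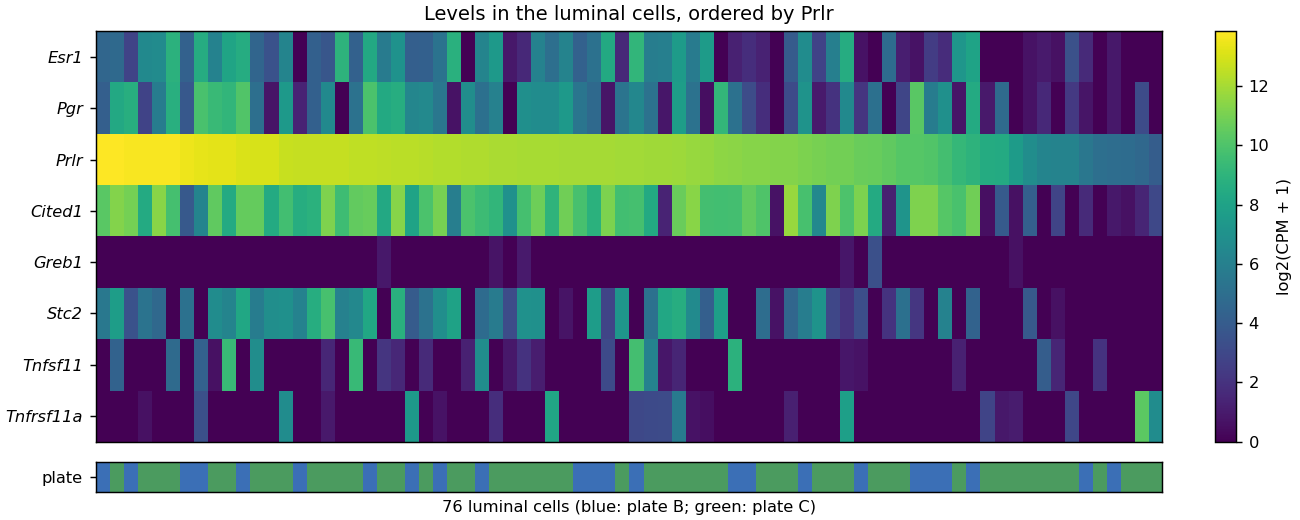
Levels of the 8 genes, as log2(CPM + 1), in each of the 76 luminal cells, ordered from the highest to the lowest Prlr; the strip below marks plate B (blue) and plate C (green). Greb1 has a read in 6 cells, and Tnfsf11 and Tnfrsf11a appear in scattered cells, 12 and 10 of 76 at 50000 reads.

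Co-detection was read as the number of luminal cells with both genes over the number given by the product of their shares. Of the 21 pairs that had a ratio (both genes in at least 5 cells), 19 were found together more often than the product. Over all 49228003 gene pairs found in at least 5 cells, 68.8% were. Over 10 other draws of the reads, 11 to 19 pairs of members lay above the product. At 100000 and at 500000 reads per cell 11 of 21 pairs did, with 6 pairs at the product. At 50000 reads the median ratio was 1.10 over the members' pairs and 1.11 over all pairs, so the size of the ratios was that of genes at large. Taken member by member, the share of all 9922 other genes above the product was 74.7% for Esr1, 76.1% for Pgr, 78.2% for Prlr, 82.4% for Cited1, 72.3% for Stc2, 57.6% for Tnfsf11 and 58.6% for Tnfrsf11a. The 6 pairs with Prlr had a ratio of 1.01 each, because Prlr was in 75 of 76 cells. Among the 15 pairs without Prlr, 13 lay above the product at 50000 reads and 10 with at least 5 reads asked of each gene at full depth.

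The nuclear receptors were often, but not always, in the same cell. Esr1 and Pgr were found together in 29 cells, where the product gave 24.9, with Esr1 without Pgr in 13 cells, Pgr without Esr1 in 16 and neither in 18. All 42 cells with Esr1 also held Cited1, where the product gave 34.8. Of the 45 cells with Pgr, 44 held Cited1, where the product gave 37.3. With at least 5 reads asked of each gene, Cited1 was in 46 of 49 cells with Esr1 and 51 of 52 cells with Pgr. Stc2 shared 29 cells with Esr1 (product 23.8), 28 with Pgr (25.5) and 42 with Cited1 (35.6).

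The cells with the ligand and those with its receptor were read in the same way. Of the 12 cells with Tnfsf11, 10 held Esr1 (product 6.63), 10 held Pgr (7.11) and all 12 held Cited1 (9.95). With at least 5 reads at full depth, Tnfsf11 was again in 12 cells. Of these, 9 held Esr1 (product 7.74), 9 held Pgr (8.21) and 10 held Cited1 (10.1). Tnfrsf11a, in 10 cells, shared 6 with Esr1 (product 5.53), 7 with Pgr (5.92) and 7 with Cited1 (8.29). It shared 2 with Stc2 (5.66) and 3 with Tnfsf11 (1.58). With at least 5 reads Tnfrsf11a was in 12 cells. In the same order those counts were then 9 (7.74), 8 (8.21), 8 (10.1), 5 (7.74) and 2 (1.89). These counts are small, and no test was made of the difference between the pairs.

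**Figure D4:**
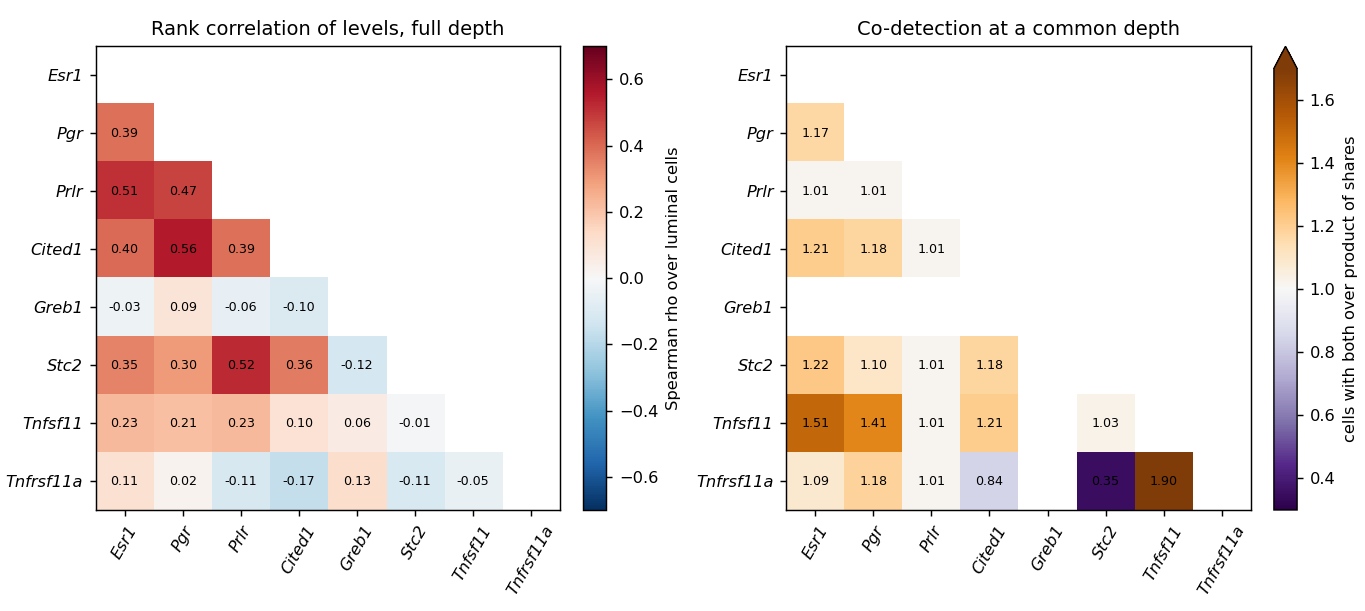
Left, Spearman rank correlation of log2(CPM + 1) at full depth over 76 luminal cells for the 28 pairs of genes; right, luminal cells with both genes over the product of their shares at 50000 reads for the 21 pairs with a ratio. Esr1, Pgr, Prlr, Cited1 and Stc2 share rho values of 0.30 to 0.56 on the left, while on the right every pair with Prlr is at 1.01.

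Levels were also correlated over the 76 luminal cells, as a description without a p-value, since the cells share plates, an unknown set of mice and differences in depth. Among Esr1, Pgr, Prlr, Cited1 and Stc2 the 10 Spearman values at full depth lay between 0.30 and 0.56. The highest were Pgr with Cited1 (0.56), Prlr with Stc2 (0.52) and Esr1 with Prlr (0.51). Over 5699 genes found in at least 20% of luminal cells, the median rho was 0.12 for Esr1, 0.12 for Pgr, 0.06 for Prlr, 0.13 for Cited1 and 0.10 for Stc2, and the 95th percentile lay between 0.30 for Prlr and 0.35 for Cited1. The number of genes found per cell at 50000 reads moved with these levels to a lesser degree, with rho of 0.27 for Esr1 and Cited1, 0.23 for Pgr and Stc2 and 0.07 for Prlr, and its part in the values was not tested. All 10 pairs were positive on plate C (0.36 to 0.62). On plate B, with 24 cells, Prlr with Cited1 was at -0.10 and the other 9 pairs between 0.06 and 0.42. Tnfsf11 had rho of 0.23 with both Esr1 and Prlr, 0.21 with Pgr, 0.10 with Cited1 and -0.01 with Stc2. In that order its values were 0.25, 0.02, -0.11, -0.07 and -0.38 on plate B. They were 0.19, 0.32, 0.38, 0.20 and 0.11 on plate C. Tnfrsf11a lay between -0.17 and 0.13 with every other member. On plate B, where 4 of 24 cells held a read of Tnfrsf11a, it was at 0.36 with Esr1, 0.25 with Pgr and 0.25 with Prlr. There it was at -0.21 with Cited1, -0.13 with Stc2 and 0.29 with Tnfsf11. In that order its values on plate C were 0.05, 0.01, -0.24, -0.12, -0.12 and -0.22.

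The genes most like each member were taken by rank correlation at 50000 reads, from 5700 genes found in at least 20% of luminal cells. For Prlr they were Fgfr2 (rho 0.69), a fibroblast growth factor receptor, Capsl (0.67) and Cd164 (0.64). At full depth Fgfr2 had rho of 0.58 on plate B and 0.77 on plate C. For Cited1 they were Gpc1 (0.65), a cell-surface proteoglycan, Ptn (0.62), the secreted growth factor pleiotrophin, and Wfdc2 (0.61). For Pgr they were G6pdx (0.54), glucose-6-phosphate dehydrogenase, Cited1 itself (0.53) and Dipk1a (0.52). For Esr1 they were Soat1 (0.49), which esterifies cholesterol, Capsl (0.48) and Wfdc2 (0.46). For Stc2 they included Gpx3 (0.50), a secreted glutathione peroxidase, and Ly6d (0.50). Each of these 14 correlations was positive on both plates at full depth.

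**Figure D5:**
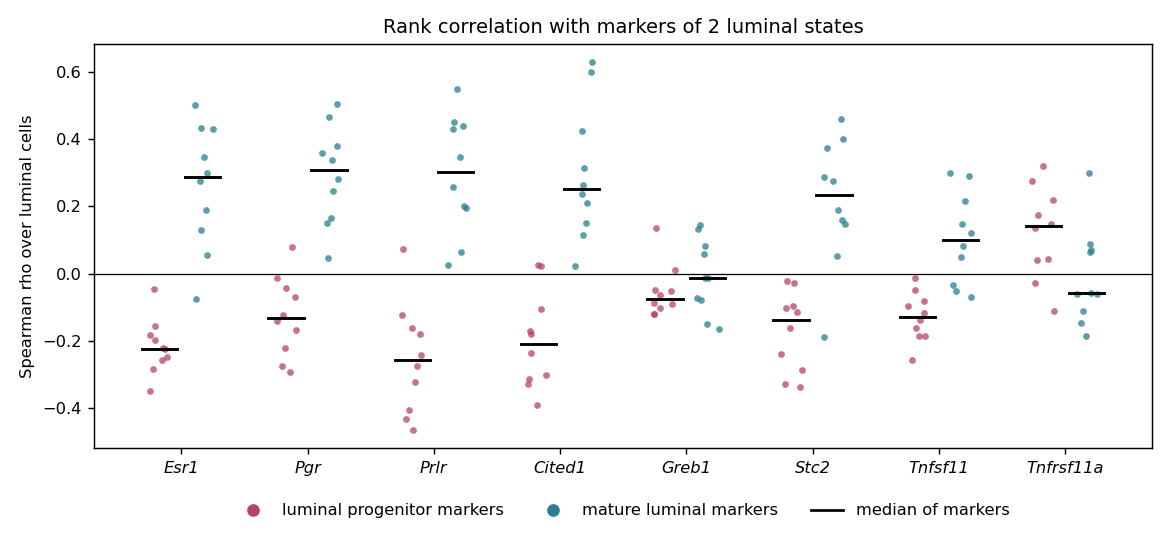
Spearman rho over 76 luminal cells, at full depth, of each of the 8 genes with 10 luminal progenitor markers (red) and 10 mature luminal markers other than the 8 genes (teal); points are markers and black lines their medians. Esr1, Pgr, Prlr, Cited1 and Stc2 have medians of 0.23 to 0.31 with the mature markers and below 0 with the progenitor markers. Over 5699 genes their medians are 0.06 to 0.13. Tnfrsf11a has medians of -0.06 and 0.14, beside 0.09 over 5700 genes.

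The luminal compartment holds alveolar-type progenitors and hormone-sensing mature cells, so each member was set against 10 markers of either state. With the mature luminal markers, among them the pioneer factor Foxa1 and the growth factor Areg, the median rho was 0.29 for Esr1, 0.31 for Pgr, 0.30 for Prlr, 0.25 for Cited1 and 0.23 for Stc2. With the luminal progenitor markers, among them Elf5 and Kit, it was -0.22, -0.13, -0.26, -0.21 and -0.14 in the same order. Over 5699 genes the 95th percentiles of rho were 0.323, 0.317, 0.297, 0.351 and 0.311 in that order. Only the median of Prlr with the mature markers lay above its percentile. The 5th percentiles were -0.103, -0.088, -0.184, -0.115 and -0.119, and each median with the progenitor markers lay below its percentile. At full depth none of the 10 progenitor markers had a rho above 0 with Esr1, Stc2 or Tnfsf11, while at 50000 reads Esr1 with Elf5 (0.016), Stc2 with Kit (0.081) and Tnfsf11 with Ltf (0.19), Elf5 (0.09) and Cd14 (0.012) did. Tnfrsf11a had a median of 0.14 with the progenitor markers, 8 of 10 above 0, and -0.06 with the mature markers, 4 of 10 above 0. Over 5700 genes its median rho was 0.09, with 5th and 95th percentiles of -0.11 and 0.28, so both medians lay within the range of genes at large. Tnfrsf11a had rho of 0.25 with the number of genes found per cell. It was found with each of the 10 progenitor markers more often than the product of the shares, with a median ratio of 1.52, where 58.6% of all genes lay above the product with Tnfrsf11a and their median ratio was 1.09. With the 6 basal markers found in at least 5 luminal cells its median ratio was 2.89, on 3 to 5 shared cells per marker. It lay above the product with all 6, as did Cited1 at a median ratio of 1.15. Esr1, Pgr and Prlr lay above it with 5 of the 6, Tnfsf11 with 4 and Stc2 with 2.

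Other genes of the same pathways were counted by the same 2-fold rule, from lists chosen with earlier results of these data known, beside 28.4% of all genes higher in the luminal and 18.3% in the basal population. Of 16 receptor partners, 3 were higher in the luminal population and 3 in the basal one, and the median log2 ratio was 0.24. Foxa1, which opens chromatin for estrogen receptor alpha, had a ratio of 6.78, with 0.975 CPM in the basal and 216.0 CPM in the luminal population, and 7.28 without basal cell 13. The luminal regulator Gata3 had a ratio of 1.41 (0.82 on plate B). Tfap2c had a ratio of -2.90, the coactivator Ncoa1 -1.47 (-0.44 on plate B) and Cited2, a relative of Cited1, -1.25. Basal cell 92 held 76.5% of the basal Cited2 reads, and without it the ratio was 0.72, the opposite direction.

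Of 11 other estrogen and progesterone targets, 6 were higher in luminal and 3 in basal cells, with a median of 1.72. Areg, the epidermal growth factor receptor ligand amphiregulin, was at 6.88, Calca, calcitonin, at 6.23, the transcription factor Myb at 6.05 and the secreted factor Wnt4 at 5.40. Basal cell 90 held 98.9% of the basal Calca reads and 42.2% of those of Areg, and without it the ratios were 8.26 and 7.49. Higher in basal cells were Adamts18, a secreted protease, at -3.66, the chemokine Cxcl12 at -2.52 and Igfbp4, which binds insulin-like growth factors, at -1.08. Igfbp4 was at -0.65 without basal cell 72 and at -2.52 without luminal cell 54. Adamts18 was at -6.42 without luminal cell 63, and Cxcl12 at -3.91 without luminal cell 71.

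Of 11 genes of prolactin signalling, 4 were higher in luminal and 3 in basal cells, and the median was -0.01. The higher ones were Elf5, the alveolar transcription factor, at 5.66, Stat5b at 1.86 (0.83 on plate B), Stat5a at 1.22 and Jak2 at 1.17. The luminal cells with the highest counts of Elf5, Stat5b and Jak2 (45, 66 and 15) held 48.8%, 47.7% and 12.4% of the luminal reads. With that cell left out for each gene, Elf5 was at 4.74, Stat5b at 1.02 and Jak2 at 0.999, just under 2-fold. The growth hormone receptor Ghr was at -1.56 and the feedback inhibitor Socs3 at -1.83. Ghr was at -0.50 without basal cell 84 and -2.68 without luminal cell 40. Socs3 was at -1.05 without basal cell 92 and -2.58 without luminal cell 11. Elf5 was found in 15 of 76 luminal cells at 50000 reads, and Prlr in all 15 of them. The product gave 14.8, because Prlr was in 75 of 76 cells. The levels of the 2 genes had rho of -0.24 at full depth and -0.16 at 50000 reads.

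Of 12 genes of RANK signalling, 2 were higher in luminal and 3 in basal cells, with a median of -0.34. Tnfrsf11b, the decoy receptor osteoprotegerin that binds RANK ligand, had 2306 reads in basal and none in luminal cells, so that basal cells were at least 1042-fold higher than the 0.0263 CPM that 3 reads over all luminal cells would give. Its basal reads lay in few cells, 92.7% of them in 5 cells, and 4 of the 2306 were on plate B. The adaptor Traf2 was at 1.27 and the kinase Chuk at 1.14. Without the luminal cell with most reads (81 and 26) they were at 0.74 and 0.89, both under 2-fold, and Traf2 was at 3.73 without basal cell 25. Map3k14, the kinase of the alternative pathway, was at -2.69 (-0.06 on plate B, and -3.92 without luminal cell 29) and Nfkb1 at -1.24. Cell 84 accounted for 34.9% of the Nfkb1 reads in the basal population, and leaving it out moved the ratio to -0.65.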

How the data were processed

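Single cells of the adult mammary gland were profiled by RNA-seq, 96 basal and 90 luminal, and grouped by the submitters' labels. The deposited values were raw counts per Entrez gene and cell, which the authors obtained by aligning read pairs to mm10 with Subread and counting with featureCounts and the RefSeq annotation built into Rsubread; use of strand and treatment of multi-mapping reads are not given in the sources used here. Symbols were taken from RefSeq GRCm38.p6 for 25275 of 27179 identifiers, and the 1904 without a symbol (1.94% of counts) were left out. The combined table over all cells was left aside. After removal of 15 mitochondrial and 124 ribosomal protein genes, cells were kept at 50000 reads and 1000 genes (basal) or 100000 reads and 1500 genes (luminal), and genes at 1 CPM in 3 cells (14773). The chambers had been inspected by microscope, and no doublet caller was run. No 2 cells of a population were alike within sampling noise, which would give a chi-square near 1 per gene: the smallest was 19.7 in basal and 37.8 in luminal cells.

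Counts were summed per population and scaled to CPM of the kept reads, and 1 CPM was added before the log2 ratio. Detection was read after each cell had been thinned at random to 50000 reads, and pair ratios were given where both genes were in at least 5 cells. The ratio step was tested on simulated data. Beside the 8 members, the text names up to 4 genes per direction in each pathway list (at least 10 CPM, at least 2-fold, the same direction on plate B) and the 3 genes most like each member found in at least 20% of luminal cells, of which 1 is not reported here. The members, lists and markers were chosen with earlier results of these data known. Single cells other than basal cells 13 and 90 and luminal cell 63 were named after their values were seen. Alternatives covered the cell filter, plates, scaling, the added CPM, thinning depth and draw, and leaving out cells. Python 3.11.15, numpy 2.4.6, pandas 2.3.3, scipy 1.17.1 and, for scaling factors of an alternative, edgeR 4.0.16 in R 4.3.3 were used. A total of 69933 to 3226961 reads per kept cell sets the precision, and intervals cover counting error only.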

Additional observations from a re-analysis of the deposited data

Results flagged for a closer look

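Wells below the read and gene thresholds were used in no comparison, yet 4 members had reads there above the limit that a count of 0 allows. That limit was 11.3 CPM in the 24 basal wells, which held 265874 reads together, and 7.27 CPM in the 14 luminal wells, which held 412543. In the luminal wells Prlr reached 19416 CPM of the summed counts and had a read in all 14, Stc2 785.4 CPM in 9, Pgr 111.5 CPM in 3, with 43 of its 46 reads in 1 well, and Cited1 29.1 CPM in 7. In the basal wells Prlr reached 165.5 CPM, with 44 reads over 16 wells and at most 6 in a well, and Cited1 41.4 CPM, with 11 reads over 9 wells. Esr1, Greb1, Tnfsf11 and Tnfrsf11a stayed under the limit in both populations.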

How the results depend on the processing

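The count of 6 members at least 2-fold higher in luminal cells was the same under every alternative. The median log2 ratio of the members (5.26) was 5.13 when mitochondrial and ribosomal protein genes stayed in, 5.09 with TMM factors and 5.07 with median-of-ratios factors, which shift the ratios of all genes down by 0.22 and 0.26. It was 5.46 on plate B alone, 5.79 with 0.1 CPM added, 3.04 with 10 CPM added, 5.35 without the 15 wells with markers of other cell types and 5.58 without basal cells 13 and 90 and luminal cell 63. Leaving out 1 cell at a time gave 5.03 to 5.57. Chosen after seeing the data, leaving out basal cell 90 gave 5.57 and basal cells 13 and 90 gave 5.60. The Greb1 ratio of -1.80 turned to 0.045 without the 2 basal cells with most of its reads, where both levels were under 0.1 CPM. Of 23 named pathway genes, 7 were under 2-fold without the cell with most reads in the higher population, and Cited2 (-1.25) turned to 0.72. The share of luminal cells with 3 or more members (81.6%) was 97.4% without thinning, 93.2% at 500000 reads and 75.0% to 80.3% over 10 other thinning draws. The 19 of 21 pairs above the product became 12 of 28 without thinning, 11 of 21 at 100000 and at 500000 reads, 10 of 21 with at least 5 reads, 10 of 10 for plate B, 12 of 21 for plate C, and 11 to 19 over the other draws. Wherever Prlr was in every luminal cell, its pairs were at the product by construction: without Prlr the counts were 13 of 15 pairs at 50000 reads and 11 of 15 at 100000. With no gene filter, 20.5% of 21674 genes were at least 2-fold higher in luminal and 13.2% in basal cells. Of 159 alternative values of single members' ratios, 70 stayed within the counting bounds and 88 moved outside them, as did 31 of 136 detection shares outside their intervals.

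No paired analysis was possible because replicate numbers here only count cells, no label ties a cell to a mouse, and no test was made. Depth limits the detection shares: from 50000 reads to full depth Tnfsf11 went from 15.8% to 36.8% of luminal cells and Tnfrsf11a from 13.2% to 28.9%.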
